A study of Homo sapiens with 2 samples.

Results

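The S100 genes encode small calcium-binding proteins, and 9 of them were compared between H1944 cells with and without depletion of the deubiquitinase USP12. They were S100A2, S100A4, S100A6, S100A10, S100A11, S100A13, S100A14, S100A16 and S100P. These genes were picked with earlier results of these data known, and their rows were found by symbol among the 59125 rows with a count. H1944 is an established human lung adenocarcinoma line. The cells had been given a short hairpin RNA, a control one in the shCON group and one targeting USP12 in the shUSP12 group, and each group was 1 library of mRNA. The methods of the study place the hairpins in the lentiviral vector pLKO.1, with 2 target sites in USP12. The labels do not say which of these the shUSP12 cells carried, and the methods name a GFP hairpin as the control whereas the column of the control counts is headed SHRFP.

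S100 proteins pair into dimers, and each chain holds a pair of EF-hand loops that can bind calcium. Binding opens a surface through which the dimer grips a partner, such as an annexin, a myosin heavy chain or ezrin, and some members are released from cells and act on receptors such as AGER (also called RAGE). Most S100 genes lie together on the long arm of chromosome 1 within the epidermal differentiation complex, and several are known from invasion, keratinocyte differentiation and inflammation in epithelial tumours, those of the lung included.

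Of the 9 genes, S100A4, S100A2 and S100A13 were at least 2-fold higher in shUSP12 than in shCON and none was at least 2-fold lower. Over the 14612 rows compared, 6.48% passed this threshold upwards and 3.01% downwards. S100A13 had only 33 and 81 counts, and 16.5% of rows in its low-level group passed upwards. The counting intervals of S100A2 and S100A13 began at 1.86-fold and 1.54-fold. With 1 count per 1000000 added to each level, S100A13 was no longer past 2-fold. S100A4, known from cell motility and metastasis, had the largest difference at 3.99-fold. S100A6, S100A14, S100P and S100A11 were higher by 1.18-fold to 1.40-fold. S100A10 and S100A16, which are among the most abundant of the family here, were 0.974-fold and 0.960-fold. These values compare 2 libraries and have no replicate check, so no p-value was computed, and in bulk RNA fewer cells with a transcript and less transcript per cell cannot be told apart.

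The genes lie as follows in GENCODE 44 on GRCh38. On chromosome 1, all on the minus strand, are S100A10 (chr1:151982915-151993859), S100A11 (chr1:152032506-152047907), S100A6 (chr1:153534599-153536244), S100A4 (chr1:153543613-153550136), S100A2 (chr1:153561108-153567890), S100A16 (chr1:153606886-153613145), S100A14 (chr1:153614255-153616986) and S100A13 (chr1:153618787-153631360). S100P lies apart, on the plus strand of chromosome 4 (chr4:6693878-6697170). Between S100A11 and S100A6 are 1487 kb, whereas S100A6 and S100A4 are separated by 7.37 kb, S100A4 and S100A2 by 10.97 kb, and S100A14 and S100A13 by 1.80 kb. All 3 genes past 2-fold therefore lie in the stretch from S100A6 to S100A13, together with S100A6, S100A16 and S100A14, which were not past it.

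The coding sequences run from 90 residues in S100A6 to 105 in S100A11. Over aligned coding bases, S100A2 and S100A4 were the most alike of the 36 pairs, with 69.3% identity, followed by S100A2 and S100A6 with 60.9% and S100A4 and S100A6 with 60.2%. S100A10 and S100A14 were the least alike, with 42.2%.

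The 250 bases before the transcript start are shown for S100A4 and S100A2, the genes with the largest ratios, and for S100A10 and S100A16, the ones nearest to no difference. RefSeq listed 2 promoters each for S100A2 and S100A16 and 3 for S100A13. For each gene, only the promoter at the start of the canonical transcript was used. The windows are chr1:153545807-153546056 for S100A4, chr1:153565845-153566094 for S100A2, chr1:151993860-151994109 for S100A10 and chr1:153613138-153613387 for S100A16, each read 5′ to 3′ on the minus strand from RefSeq promoters on GRCh38.p14. Capitals mark matches to the AP-1 motif TGANTCA and the E-box CANNTG, which were searched on both strands.
S100A4: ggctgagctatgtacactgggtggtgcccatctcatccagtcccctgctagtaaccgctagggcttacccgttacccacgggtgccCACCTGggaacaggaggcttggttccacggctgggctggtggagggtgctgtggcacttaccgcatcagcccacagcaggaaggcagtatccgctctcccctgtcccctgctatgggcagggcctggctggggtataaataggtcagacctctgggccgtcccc
S100A2: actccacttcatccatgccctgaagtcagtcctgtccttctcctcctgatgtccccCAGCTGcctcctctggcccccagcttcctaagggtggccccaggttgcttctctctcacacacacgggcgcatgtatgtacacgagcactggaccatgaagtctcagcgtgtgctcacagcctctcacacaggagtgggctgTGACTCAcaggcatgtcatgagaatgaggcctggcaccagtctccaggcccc
S100A10: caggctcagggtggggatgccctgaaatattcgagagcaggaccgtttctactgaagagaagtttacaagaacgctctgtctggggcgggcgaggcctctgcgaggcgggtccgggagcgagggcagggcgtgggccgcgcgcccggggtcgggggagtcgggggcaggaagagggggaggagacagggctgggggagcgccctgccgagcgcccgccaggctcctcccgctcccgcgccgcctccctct
S100A16: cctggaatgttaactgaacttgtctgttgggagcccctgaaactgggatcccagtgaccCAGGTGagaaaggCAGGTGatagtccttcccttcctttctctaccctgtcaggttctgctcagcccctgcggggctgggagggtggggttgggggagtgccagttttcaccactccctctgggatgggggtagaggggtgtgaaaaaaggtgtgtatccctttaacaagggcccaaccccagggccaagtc

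In S100A2 the AP-1 match TGACTCA stood at positions -52 to -46 from the start, and it was the only AP-1 match among the windows of the 9 genes. Over 35116 promoter windows of 300 bases (250 before and 50 after a start), 7.71% held this motif. An E-box was found in 7 of the 9 windows, S100A10 and S100A11 being without one, against 68.7% of all windows. A κB motif was found in 1 of 9, that of S100A14, against 11.3% of all windows. No AP-1, κB or E-box match overlapped another in these windows. The windows also differed in CG dinucleotides, with 24 in the 250 bases of S100A10, 7 in S100A4, 4 in S100A2 and 1 in S100A16, beside a median of 11 over all promoters. These matches describe the sequence and do not show that a factor binds there.

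Total counts were 18249112 for shCON and 17475359 for shUSP12. Values are given as CPM, counts per 1000000 counts of a library after TMM scaling (trimmed mean of M values), and the log2 ratio is shUSP12 over shCON after adding 0.1 CPM. Intervals are exact Clopper-Pearson 95% intervals, which cover counting error only. USP12 itself had 711 counts in shCON and 219 in shUSP12, or 40.8 and 11.97 CPM, a log2 ratio of -1.76 (interval -1.99 to -1.55). All 9 genes had a mean of at least 1 CPM, as did 14612 rows in all, which are called the tested rows.

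S100A4 binds the heavy chain of non-muscle myosin IIA and is linked with cell migration. It had 389 counts in shCON and 1633 in shUSP12, or 22.3 CPM (20.2 to 24.6) and 89.3 CPM (85.0 to 93.7). The log2 ratio was 1.99 (interval 1.84 to 2.16), which was above that of 97.1% of the tested rows.

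S100A2 is a mostly nuclear member found in basal epithelial cells. Its counts were 123 in shCON and 298 in shUSP12, or 7.06 CPM (5.86 to 8.42) and 16.3 CPM (14.5 to 18.2). The log2 ratio was 1.20 (interval 0.90 to 1.52), so that the lower end of the interval fell short of 2-fold.

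S100A13 takes part in the release of FGF1 and IL1A, proteins that leave cells without a signal peptide. It was the least abundant of the 9 by CPM, with 33 counts in shCON and 81 in shUSP12, or 1.89 CPM (1.303 to 2.66) and 4.43 CPM (3.52 to 5.50). The log2 ratio was 1.18 (interval 0.62 to 1.86). With 1 CPM added in place of 0.1 it was 0.91 and no longer past 2-fold. Exons of this gene also overlap others, since 235 bases are shared with S100A1 on the opposite strand and 536 with a long non-coding RNA (ENSG00000271853) on the same strand. That RNA was at 0 in both libraries, and 41.1% of the 50-base words of the S100A13 transcript also occur in it, so the counts of S100A13 are uncertain. The library kit was stranded, but whether counting used the strand is not stated.

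S100A6, or calcyclin, binds the ubiquitin ligase adaptor CACYBP and annexins. It had 7756 counts in shCON and 11421 in shUSP12, or 445 CPM (435 to 455) and 624 CPM (613 to 636), a log2 ratio of 0.49 (interval 0.45 to 0.53). In CPM this was the largest gain of the family, 179 CPM, against 66.9 CPM for S100A4.

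S100P, a member known from placenta and from gland-forming tumours, binds ezrin and AGER. It had 1471 counts in shCON and 2068 in shUSP12, or 84.4 CPM (80.1 to 88.8) and 113 CPM (108 to 118), a log2 ratio of 0.42 (interval 0.32 to 0.52). S100A14, an epithelial member whose secreted form can act on AGER, had 94 counts in shCON and 138 in shUSP12, or 5.39 CPM (4.36 to 6.60) and 7.54 CPM (6.34 to 8.91). Its log2 ratio of 0.48 had a wide interval, from 0.10 to 0.88, and the CPM intervals of the 2 libraries overlapped slightly.

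S100A11, a partner of ANXA1, had 6982 counts in shCON and 8623 in shUSP12, or 401 CPM (391 to 410) and 471 CPM (461 to 481), a log2 ratio of 0.23 (interval 0.19 to 0.28). S100A10 is the light chain of the ANXA2 complex at the plasma membrane and is unusual in that its EF hands no longer bind calcium. It had 10067 counts in shCON and 10288 in shUSP12, or 578 CPM (566 to 589) and 562 CPM (551 to 573), a log2 ratio of -0.04 (interval -0.08 to 0.0011). S100A16, a broadly expressed member, had 7618 and 7673 counts, or 437 CPM (427 to 447) and 419 CPM (410 to 429), and its log2 ratio was -0.06, with an interval from -0.11 to -0.01. The direction of both S100A10 and S100A16 depended on the scaling, and with total counts alone their log2 ratios were 0.09 and 0.07.

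**Figure D1:**
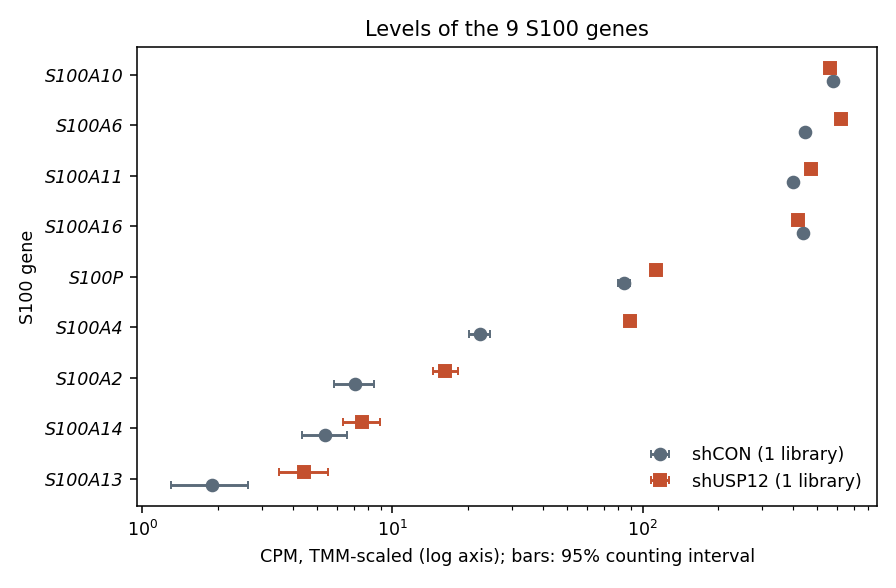
Level of each of the 9 S100 genes in CPM (log axis) in the shCON library (circles) and the shUSP12 library (squares), with bars for 95% counting intervals. S100A4 moves from 22.3 to 89.3 CPM, whereas S100A10 and S100A16 have nearly the same level in both libraries.

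The share of rows past 2-fold gives the background for these counts. Of the 14612 tested rows, 947 were at least 2-fold higher in shUSP12, or 6.48%, and 440 were at least 2-fold lower, or 3.01%. Of the rows past 2-fold, 68.3% were thus higher, and 79.6% with total counts alone. At 1.5-fold, 1744 rows were higher, or 11.9%, and among the S100 genes it was again S100A4, S100A2 and S100A13. The median log2 ratio was 0.48 over the 9 genes and -0.01 over all tested rows. The interval lay above 0 for 7 of the 9 genes, against 27.1% of the tested rows, and below 0 for 1, S100A16, against 29.1%. Counting intervals narrow as counts rise, and these shares over all tested rows are not matched for level.

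The background also changes with the level of the gene. The tested rows were divided by mean level into 4 groups of 3653. In the lowest (up to 5.43 CPM), which holds S100A13, 16.5% of rows were at least 2-fold higher. In the next (5.43 to 20.9 CPM), with S100A2 and S100A14, it was 6.19%. In the group above it (20.9 to 58.6 CPM), with S100A4 at a mean of 55.8 CPM, it was 2.3%, or 84 of 3653 rows. The other 5 genes were in the highest group.

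**Figure D2:**
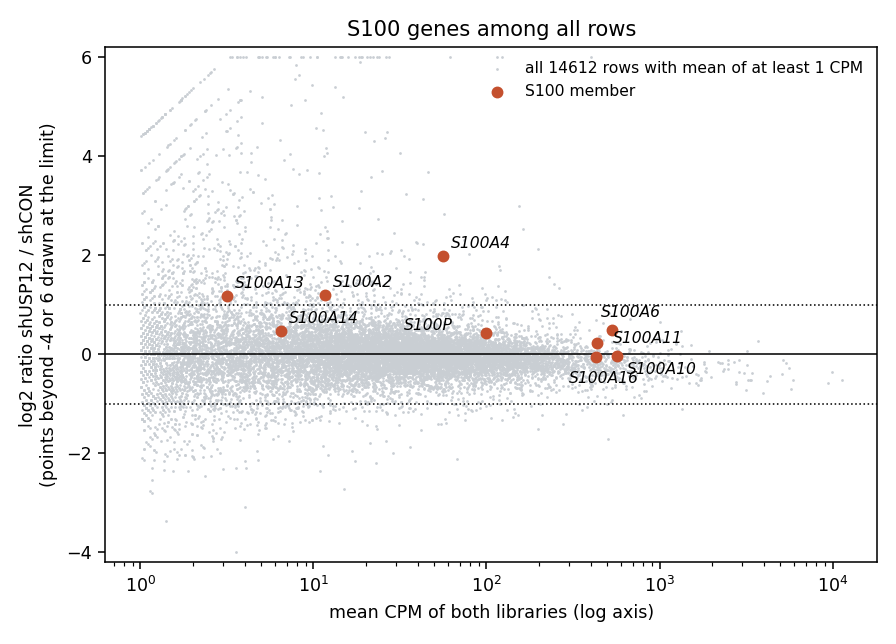
Log2 ratio of shUSP12 over shCON against the mean CPM of both libraries (log axis) for all 14612 tested rows (grey) and the 9 S100 genes (red), with dotted lines at 2-fold. S100A4 stands above most rows of its level, at a log2 ratio of 1.99, and S100A13 lies where rows spread widely.

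Placed in order of the log2 ratio, S100A4 was separated from S100A2 by 0.80, and their intervals did not overlap. S100A2 and S100A13 differed by 0.01 and had overlapping intervals. The intervals of S100A13 and S100A6 did not overlap, and S100A6, S100A14 and S100P overlapped from one to the next. S100P and S100A11 were separate, as were S100A11 and S100A10, while those of S100A10 and S100A16 overlapped. These comparisons are between neighbours in the order. The wide interval of S100A14 (0.10 to 0.88) also overlapped those of S100A13 (0.62 to 1.86) and S100A11 (0.19 to 0.28). These intervals hold counting error alone.

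Levels can be set against each other only per length of transcript. In CPM per kb of the GENCODE canonical transcript, the order in shCON was S100A6 (1025), S100A10 (861), S100A11 (712), S100A16 (373), S100P (179), S100A4 (43.5), S100A2 (7.22), S100A14 (5.12) and S100A13 (3.97). In shUSP12 it was S100A6 (1438), S100A10 (838), S100A11 (837), S100A16 (358), S100P (240), S100A4 (174), S100A2 (16.7), S100A13 (9.28) and S100A14 (7.16). S100A13 and S100A14 thus changed places, but their counting intervals overlapped in both libraries. So did those of S100A2 and S100A14 in shCON and of S100A10 and S100A11 in shUSP12, while the other neighbours in either order did not overlap. Per kb of all annotated exons, S100A14 stayed ahead of S100A13 in both libraries. On that scale S100A11 came first in both libraries, at 617 in shCON and 726 in shUSP12, so the order of the top 3 depends on the length used.

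Against all tested rows, the level per kb of S100A6 exceeded that of 99.6% in shCON and 99.8% in shUSP12. S100A4 exceeded 88.2% of rows in shCON and 97.7% in shUSP12. S100A2 exceeded 53.2% and 72.8%.

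S100A6, S100A10, S100A11 and S100A16 made up 93.9% of the summed counts of the 9 genes in shCON and 90.01% in shUSP12. The sum over the 9 genes was 1981 CPM in shCON and 2308 CPM in shUSP12, or 0.189% and 0.242% of all counts, a log2 ratio of the sums of 0.22. This was below the median of the 9 log2 ratios, 0.48.

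Of 12 other S100 genes, 2 had a mean of at least 1 CPM. S100A3, which lies within the span of S100A4 on the same strand without sharing exons, had 26 counts in shCON and 62 in shUSP12, with a log2 ratio of 1.13 (interval 0.50 to 1.90) that was 0.82 with 1 CPM added. S100A9, a subunit of calprotectin, had 226 and 261 counts, a log2 ratio of 0.14 (interval -0.12 to 0.40). Its partner S100A8 had 4 and 17 counts, a log2 ratio of 1.64 (interval 0.40 to 4.05).

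S100A5 had 1 count in shCON and 15 in shUSP12, with a log2 ratio of 2.55 with an interval from 1.14 to 9.23. S100A1, which overlaps S100A13 on the opposite strand, had 20 and 14 counts, a log2 ratio of -0.53 (interval -1.68 to 0.47). S100A12 and S100Z had no count in shCON and 1 in shUSP12. S100A7, S100A7A, S100A7L2, S100B and S100G were at 0 in both libraries, which allows a level of up to 3 counts, equal to 0.172 CPM for shCON and 0.164 CPM for shUSP12.

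**Figure D3:**
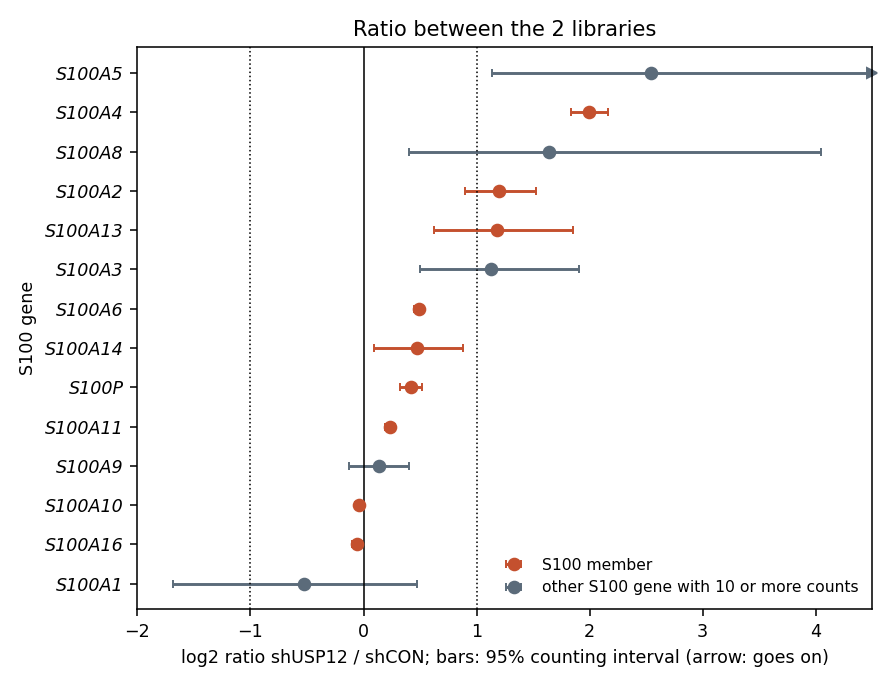
Log2 ratio of shUSP12 over shCON for the 9 S100 genes (red) and the 5 other S100 genes with at least 10 counts in a library (blue-grey), with bars for 95% counting intervals and dotted lines at 2-fold. Genes with few counts, such as S100A5 and S100A8, have intervals several log2 units wide, and that of S100A4 runs from 1.84 to 2.16.

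The S100 genes were also set against the other genes around them on chromosome 1. The cluster from S100A10 to the end of S100A1 spans 1.65 Mb, and with 500 kb on either side it held 141 rows outside the S100 family, of which 28 were tested. Of these, 5 were at least 2-fold higher and none was at least 2-fold lower, against 6.48% and 3.01% of all tested rows. The median log2 ratio was 0.07. Of the 5, only CGN had a mean of at least 5 CPM. The others were in the lowest group by level, where 16.5% of rows were at least 2-fold higher. CGN, which encodes the tight junction protein cingulin, had 140 counts in shCON and 530 in shUSP12, with a log2 ratio of 1.84 (interval 1.58 to 2.13). THEM5 had 11 and 95 counts, and SLC27A3, a fatty acid transport protein gene, 37 and 82. C2CD4D had 10 and 32 counts. C2CD4D-AS1, whose span overlaps that of THEM5 on the opposite strand, had 6 and 63, and whether their exons overlap was not examined. With 1 CPM added, the log2 ratios of SLC27A3 and C2CD4D were 0.81 and 0.80. FLG, the filaggrin gene of the epidermal differentiation complex, had 734 counts in shCON and 396 in shUSP12, with a log2 ratio of -0.96.

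**Figure D4:**
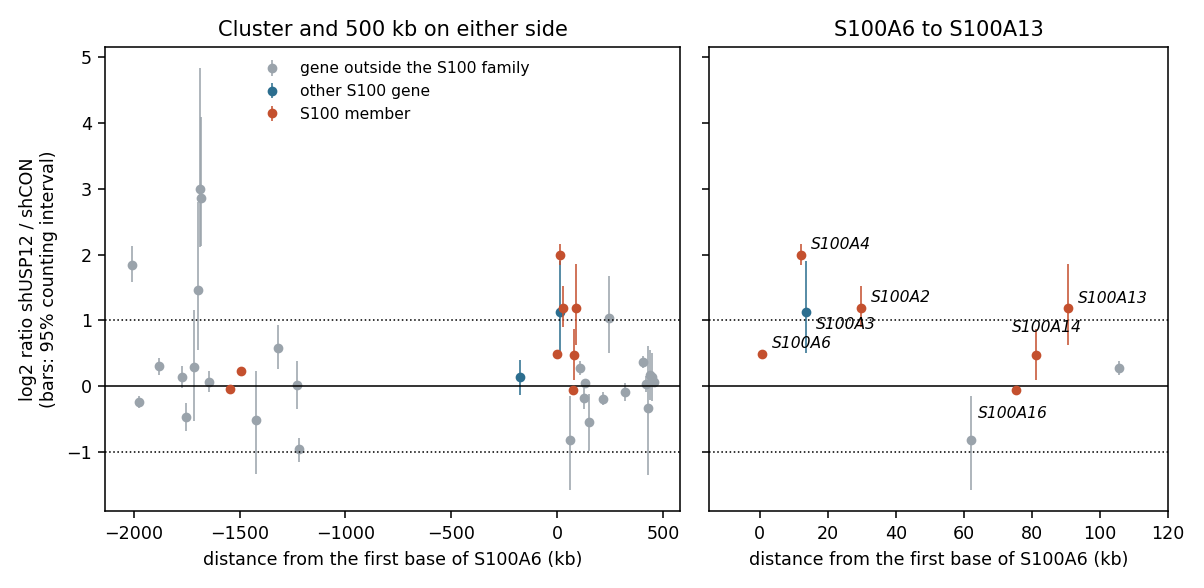
Log2 ratio of shUSP12 over shCON for tested genes by distance in kb from the first base of S100A6, over the cluster and 500 kb on either side (left) and from S100A6 to S100A13 (right), with bars for 95% counting intervals. In the right panel S100A4, S100A3, S100A2 and S100A13 lie above the 2-fold line, and S100A6, S100A14 and S100A16 lie below it.

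Annexins are calcium-dependent membrane-binding proteins and the best known S100 partners. All 13 annexin genes were tested and none was past 2-fold in either direction. Over all tested rows, 6.48% passed 2-fold upwards and 3.01% downwards. With shares this small, a count of 0 among 13 genes does not set the annexins apart from other rows. Their median log2 ratio was -0.23, and 9 of 13 were below 0, as were 51.1% of the tested rows. ANXA1, the partner of S100A11, had 8716 counts in shCON and 12660 in shUSP12, with a log2 ratio of 0.47 (interval 0.43 to 0.51). ANXA2, the partner of S100A10, had 52286 and 50864 counts, a log2 ratio of -0.11 (interval -0.13 to -0.09). ANXA11, which binds S100A6, had 3583 and 3206 counts, a log2 ratio of -0.23. ANXA9 was closest to the threshold, at 0.99, and passed it with total counts alone, at 1.12. ANXA8 and ANXA8L1 are near-identical copies, so their log2 ratios of -0.65 and -0.74 are uncertain.

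Of 15 other partners and receptors, all tested, 2 were at least 2-fold higher and 1 was at least 2-fold lower. The shares over all tested rows were 6.48% and 3.01%. Their median log2 ratio was -0.12 (0.016 with total counts alone). Those past 2-fold were SYT1, IL1A and FGF1, partners of S100A13 in non-classical secretion, and a link with S100A13 was not tested. SYT1, a calcium sensor of membrane fusion, had 20 counts in shCON and 282 in shUSP12, with a log2 ratio of 3.64 (interval 3.09 to 4.48). IL1A, a cytokine, had 17 and 55 counts, a log2 ratio of 1.53 (interval 0.82 to 2.50). With a mean of 1.99 CPM, IL1A was in the lowest group by level, where 16.5% of rows were at least 2-fold higher. FGF1, a growth factor, had 187 and 92 counts, a log2 ratio of -1.08 (interval -1.47 to -0.73), opposite in direction to S100A13. It was not past 2-fold with total counts alone, at -0.95, or with 1 CPM added, at -0.96.

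MYH9, the myosin heavy chain that S100A4 binds, had 66528 counts in shCON and 48932 in shUSP12, with a log2 ratio of -0.51. EZR, the ezrin gene, had 18977 and 14371 counts and a log2 ratio of -0.47, and CACYBP had 3043 and 2867 and a log2 ratio of -0.16. The receptor gene AGER had 39 and 38 counts, and its log2 ratio of -0.10 had an interval from -0.79 to 0.57.

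Of 31 genes of other EF-hand proteins, such as calmodulins, calpain subunits and actinins, 30 were tested. Of these, 1 passed 2-fold upwards and 1 downwards, beside shares of 6.48% and 3.01% over all tested rows. RCN3, a reticulocalbin of the secretory pathway, was higher, with 15 and 86 counts and a log2 ratio of 2.32. MICU3, a regulator of mitochondrial calcium uptake, was lower, with 44 and 20 counts and a log2 ratio of -1.14. With 1 CPM added, the log2 ratio of MICU3 was -0.75. Both genes were in the lowest group by level, where 16.5% of rows passed 2-fold upwards. The median log2 ratio of the list was -0.08 (0.06 with total counts alone). The difference between these lists was described by counts and medians only and was not tested.

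**Figure D5:**
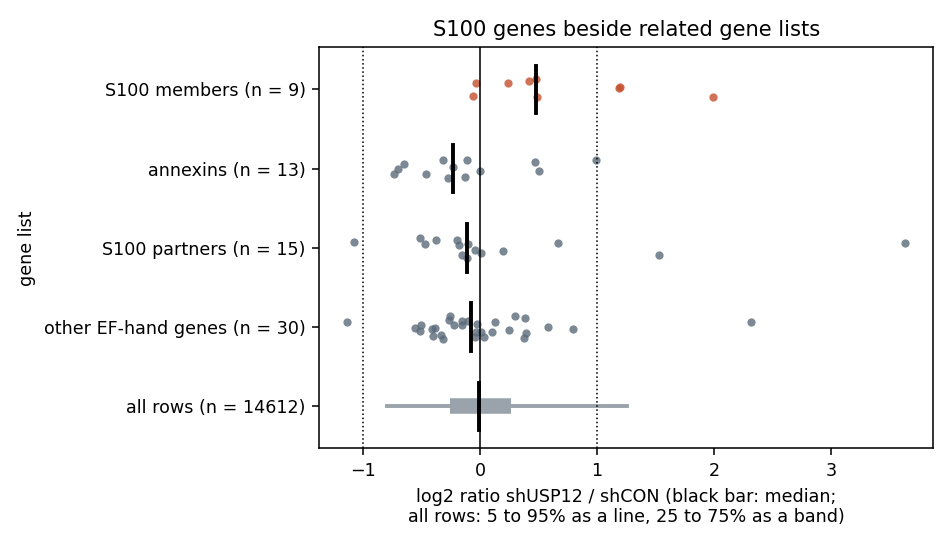
Log2 ratio of shUSP12 over shCON for each gene of the S100 list, the annexins, other S100 partners and other EF-hand genes (points, with the median as a black bar), and for all tested rows. The S100 median of 0.48 lies to the right of the medians of the other lists, from -0.23 to -0.08 with TMM scaling, and all rows run from -0.80 at the 5th percentile to 1.253 at the 95th.

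Markers of cell type and state moved between the libraries beside the S100 genes. Of 10 markers of lung and gland epithelium, 8 were tested and 5 were at least 2-fold higher in shUSP12. They were NKX2-1 (0 and 312 counts in shCON and shUSP12), KRT19 (32 and 4452), EPCAM (115 and 1566), CDH1 (1026 and 2496) and CLDN3 (4 and 85). KRT7 had a log2 ratio of 0.65, KRT8 and KRT18 had log2 ratios of -0.53 and -0.49, and SFTPB was at 0 in both libraries. The summed level of the list was 7145 CPM in shCON and 6098 CPM in shUSP12, of which KRT8 alone made up 4911 and 3398 CPM. Of 10 squamous and basal markers, 7 were tested, of which CSTA and TP63 were at least 2-fold higher (TP63 not with 1 CPM added) and DSG3 at least 2-fold lower. The list summed to 1082 and 665 CPM, of which SFN alone made up 1049 and 632 CPM, and KRT6A had a log2 ratio of -0.55. Of 10 mesenchymal markers, 7 were tested and COL1A1, ACTA2 and PDGFRB were at least 2-fold lower (PDGFRB not with 1 CPM added), with sums of 506 and 314 CPM. VIM and COL3A1 had log2 ratios of -0.59 and -0.73, whereas LUM and DCN had 0.41 and 0.24. CLDN3, TP63 and PDGFRB were in the lowest group by level, where 16.5% of rows were at least 2-fold higher.

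Of 10 immune markers, a cell type in which S100A4, S100A8 and S100A9 are abundant, 3 were tested and none was past 2-fold, with sums of 7.17 and 7.76 CPM. CD3E, CD68 and FCGR3A were at 0 in both libraries, and PTPRC had 0 counts in shCON and 2 in shUSP12. Of 8 endothelial markers 1 was tested, with sums of 2.58 and 4.92 CPM. Among those with a mean below 1 CPM, KDR had 0 and 32 counts and VWF 1 and 13. By contrast, CLDN5 had 7 and 0 and PECAM1 10 and 7. In addition, 119 rows had 3 counts or fewer in shCON but 50 or more in shUSP12, together 1176 CPM, and 1 row showed the reverse. No S100 gene was among them. The part of these differences in the S100 results was not tested.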

How the data were processed

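RNA was sequenced from H1944 cells, 1 shCON and 1 shUSP12 library, grouped by the treatment label. The deposited values were whole-number counts per gene that the authors did not normalise. The methods name Seqtk, Hisat2 on GRCh38 and Stringtie, whereas the submitters' processing notes name Trimmomatic, HISAT2 2.0.4 and HTSeq 0.6.0, so the counting tool is not settled. Whether multi-mapped reads or strand were used bears on overlapping genes. In both tables, 91 lines of annotation text without a count were left out.

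Library sizes were scaled with TMM factors (0.955 and 1.05) from edgeR 4.0.16 in R 4.3.3. The log2 ratio used 0.1 CPM added to each value, and its interval used no pseudocount. Rows averaging 1 CPM or more were tested, meaning compared with a 2-fold threshold. With 1 library per group no statistical test was run. Python 3.11.15, SciPy 1.17.1 and Biopython 1.88 (alignment of coding sequences) were used. Coordinates and lengths came from GENCODE 44, promoters from RefSeq.

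The genes and lists were chosen with earlier results of these data known. Named were the 9 S100 genes, other S100 genes with at least 10 counts in a library, main partners, USP12, and list or neighbouring genes past 2-fold with a mean of at least 5 CPM. CLDN3, TP63, SFN, KRT6A, PDGFRB, VIM, COL3A1, LUM, DCN, KRT7, KRT8, KRT18, SFTPB, IL1A, RCN3, MICU3, ANXA8, ANXA8L1, ANXA9, FLG, THEM5, SLC27A3, C2CD4D, C2CD4D-AS1, the immune markers and the S100 genes with fewer counts were named after their values were seen. The values of 1 partner gene are not reported here. The procedure was checked on simulated counts, which varied by counting error alone, so the check does not bear on variation between libraries. Other pseudocounts, filters, thresholds and scalings, with DESeq2 1.42.0 size factors among them, were tried.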

Additional observations from a re-analysis of the deposited data

How the results depend on the processing

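No paired analysis was possible because 1 library per group leaves no pairs of replicates. Of 54 recomputed S100 log2 ratios, 47 stayed within the counting interval and 7 moved out of it. S100A4 ranged from 1.95 to 2.13 and S100A2 from 1.10 to 1.33, S100A13 from 0.91 to 1.31, and S100A10 and S100A16 changed sign. At a 4-fold threshold with TMM scaling, 0 S100 genes were higher, beside 416 of the 14612 tested rows. S100A4 fell just short of 4-fold at a log2 ratio of 1.99. It passed with DESeq2 size factors, at 2.02, and with total counts alone, at 2.13. Total counts alone shifted the median of all rows by 0.13 and raised the share of higher rows among those past 2-fold from 68.3% to 79.6%.

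For the annexins, 1 gene was higher with 0.01 CPM added, with total counts alone and with DESeq2 size factors, and at 1.5-fold 1 was higher and 3 were lower. Their median was -0.10 with total counts alone. For the other partners, 0 were lower with 1 CPM added, with total counts alone and at 4-fold, where 1 was higher, as with a mean of at least 5 CPM. Their median was 0.016 with total counts alone and -0.16 with upper quartile factors. For other EF-hand genes, 0 were lower with 1 CPM added or at 4-fold, 2 were higher at 1.5-fold and without a filter, and with a mean of at least 5 CPM 0 were higher and 0 lower.

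Among neighbours of the cluster, 3 were higher with 1 CPM added, 2 at 4-fold, 1 for means of 5 CPM or more and 11 without a filter. Lower were 1 with upper quartile factors, 2 at 1.5-fold and 8 without a filter. Their median was 0.20 with total counts alone.

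Over all rows, 214 were lower with 1 CPM added and 291 with total counts alone, where the median was 0.12. Higher and lower were 1744 and 1331 at 1.5-fold, 416 and 38 at 4-fold, 3993 and 2447 without a filter, and 361 and 168 with a mean of at least 5 CPM. The other 147 of 186 list values stayed within 1.5 times for a count and within the counting interval of the middle gene for a median. Of 18 levels per length, 15 moved when the length of all exons was used. Depth limits S100A13, S100A14 and the other S100 genes with few counts most.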
